A study of Homo sapiens and Mus musculus with 33 samples.

Results

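The subunits of oxidative phosphorylation were examined across a study of histone crotonylation in mouse colon epithelium and in a human colon carcinoma line. Members were chosen by gene name: the families NDUF (complex I), SDH (II), UQCR (III), COX4 to COX8 (IV) and ATP5 (V), and the protein-coding genes of mitochondrial DNA, without pseudogenes. Of 35805 genes in the human RNA-seq data, 104 were members, 91 nuclear and 13 mitochondrially encoded. Of 25965 genes in the mouse data, 97 were members, 85 nuclear and 12 mitochondrially encoded, and the mouse cytochrome b gene is spelled in a way that the name rule did not match. Of the 91 human nuclear names, 81 are subunits and 10 are not, namely 3 antisense and 2 read-through transcripts, the retrocopies UQCRHL and ATP5L2, the assembly factor ATP5SL, ATP5S and the supercomplex factor COX7A2L. Among the 85 mouse nuclear names, Cox4nb, Atp5sl, Atp5s and Cox7a2l are not subunits.

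Complexes I to IV of the inner mitochondrial membrane pass electrons from NADH and succinate to oxygen, and complex V, the ATP synthase, uses the resulting proton gradient to make ATP. Most subunits are encoded in the nucleus and imported, whereas a small set in complexes I, III, IV and V is encoded by mitochondrial DNA and transcribed inside the organelle, so that these complexes draw on both genomes. The colon epithelium is known for its reliance on mitochondrial oxidation of butyrate, a short chain fatty acid made by gut bacteria.

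Colon epithelium of untreated male C57BL/6 mice was assayed by RNA-seq (3 mice) and by ChIP-seq of crotonylated histone H3 lysine 18 (H3K18cr, 2 libraries, made from pooled colons) and of H3K4me3 (3 libraries), a mark of active start sites. HCT116, an established human colon carcinoma line, was treated for 18 h with 5 µM MS275 (entinostat, an inhibitor of class I histone deacetylases) or with its vehicle DMSO. It was assayed by RNA-seq (4 libraries per treatment) and by ChIP-seq of H3K18cr and of acetylated H3K18 (H3K18ac), where each mark had 3 libraries with either treatment and each treatment had 1 input. The treated cells are 1 line at 1 dose and 1 time.

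RNA-seq totals were 35608533 to 53415604 counts per HCT116 library and 8166406 to 10707901 per colon library, and the HCT116 ChIP libraries held 2236551 to 5730094 reads in peaks. The RNA-seq libraries numbered 3 of both HCT116 treatments stood apart: mitochondrially encoded members took 9.28% and 10.3% of their counts, against 1.57% to 3.19% in the other libraries, so counts of calls are also given without them. In colon, epithelial markers summed to 8818 to 10362 CPM (counts scaled to a common library total), immune markers to 28.9 to 43.2 CPM and stromal and endothelial markers to 35.7 to 56.2 CPM. CPM of single HCT116 genes use totals adjusted by TMM, a scaling between libraries, while colon CPM and marker sums use raw totals. In HCT116, epithelial markers summed to 3775 to 5351 CPM with DMSO and 4870 to 5851 CPM with MS275, immune markers to 6.32 to 7.81 and 5.34 to 12.2 CPM (CD3E at 0 with DMSO), and the stromal list, led by COL1A1, to 8.60 to 12.2 and 17.4 to 21.1 CPM. The part of these levels in the results was not tested.

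Promoters of nuclear subunits are known for motifs of NRF1, of GABP (an ETS factor) and of YY1. Of the 81 human nuclear subunits, 65 were matched in a RefSeq promoter table (GRCh38.p14, 250 bases before to 50 bases after the start, 35116 promoters). Searched on both strands, the NRF1 core GCATGCG stood in 13 of 65 (against 3.91% of all promoters), the ETS core CCGGAAG in 19 (29.2%, against 10.3%) and the YY1 core ATGGCGG in 19 (29.2%, against 5.55%). At least 1 of the 3 stood in 35 promoters (53.8%, against 17.5%), and no match overlapped a match of another motif. The motifs differed in position. The NRF1 core differs little from its reverse complement, so most of its sites were read on both strands and counted as a pair of matches. The 24 NRF1 matches all began upstream of the start with a median of -92.5 bases, the 22 ETS matches had a median of -41.5, and the 21 YY1 matches had a median of 14, with 16 of them downstream of the start. A match is a run of letters and was not shown to be bound.

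The promoters shown are those of the nuclear subunits with the largest called RNA fall in complexes I, II, III and V (NDUFA13, SDHB, UQCRFS1 and ATP5G2, the last listed as ATP5MC2) and of the start sites of protein-coding member transcripts with the largest falls of H3K18cr (NDUFA10) and H3K18ac (UQCRQ). They are written 5′ to 3′ along the gene, with capitals for matches of the 3 cores.
NDUFA13: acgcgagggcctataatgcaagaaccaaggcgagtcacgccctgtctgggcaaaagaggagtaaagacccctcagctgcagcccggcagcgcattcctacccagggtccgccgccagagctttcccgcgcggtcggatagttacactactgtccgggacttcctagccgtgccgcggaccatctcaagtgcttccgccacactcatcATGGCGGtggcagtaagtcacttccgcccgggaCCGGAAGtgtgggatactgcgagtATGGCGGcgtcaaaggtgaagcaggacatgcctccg
SDHB: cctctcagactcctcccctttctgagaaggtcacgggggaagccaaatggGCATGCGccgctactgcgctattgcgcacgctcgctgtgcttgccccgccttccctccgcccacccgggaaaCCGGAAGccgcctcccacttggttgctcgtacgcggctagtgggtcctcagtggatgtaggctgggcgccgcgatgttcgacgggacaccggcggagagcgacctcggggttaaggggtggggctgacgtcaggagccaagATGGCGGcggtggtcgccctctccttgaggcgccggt
UQCRFS1: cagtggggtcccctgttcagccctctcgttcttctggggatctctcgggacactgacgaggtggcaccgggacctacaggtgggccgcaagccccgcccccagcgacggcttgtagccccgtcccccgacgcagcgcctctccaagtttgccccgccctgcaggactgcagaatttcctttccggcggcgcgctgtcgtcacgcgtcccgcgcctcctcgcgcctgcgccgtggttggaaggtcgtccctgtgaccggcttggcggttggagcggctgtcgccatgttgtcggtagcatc
ATP5G2: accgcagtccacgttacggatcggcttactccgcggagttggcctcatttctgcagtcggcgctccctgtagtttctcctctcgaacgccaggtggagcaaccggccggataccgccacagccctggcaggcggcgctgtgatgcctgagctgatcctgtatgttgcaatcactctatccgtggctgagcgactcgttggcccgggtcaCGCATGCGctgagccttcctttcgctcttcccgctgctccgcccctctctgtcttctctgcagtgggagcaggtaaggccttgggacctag
NDUFA10: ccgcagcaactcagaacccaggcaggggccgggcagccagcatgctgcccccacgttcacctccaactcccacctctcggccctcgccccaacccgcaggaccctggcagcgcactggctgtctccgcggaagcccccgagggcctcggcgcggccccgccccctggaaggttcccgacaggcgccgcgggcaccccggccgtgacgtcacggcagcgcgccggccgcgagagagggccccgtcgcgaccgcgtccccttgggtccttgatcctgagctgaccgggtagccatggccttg
UQCRQ: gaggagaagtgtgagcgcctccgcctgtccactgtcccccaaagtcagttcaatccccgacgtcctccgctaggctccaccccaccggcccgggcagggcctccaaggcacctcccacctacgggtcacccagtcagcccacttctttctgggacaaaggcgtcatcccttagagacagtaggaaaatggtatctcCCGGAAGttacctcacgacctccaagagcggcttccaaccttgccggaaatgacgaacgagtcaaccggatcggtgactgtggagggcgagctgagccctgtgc
The windows lie at chr19:19515975-19516274 on the plus strand for NDUFA13, chr1:17053983-17054282 on the minus strand for SDHB, chr19:29213102-29213401 on the minus strand for UQCRFS1, chr12:53676034-53676333 on the minus strand for ATP5G2, chr2:240025293-240025592 on the minus strand for NDUFA10 and chr5:132866392-132866691 on the plus strand for UQCRQ. NDUFA13 held YY1 cores at -43 and 14 and an ETS core at -10, SDHB held an NRF1 core at -200, an ETS core at -128 and a YY1 core at 13, and UQCRQ held an ETS core at -54. In ATP5G2 the NRF1 core was read on both strands, at -41 and -40. The windows of UQCRFS1 and NDUFA10 held none of these letters. Each window overlapped 1 HCT116 peak of a member, described with the peaks.

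In mouse colon the mitochondrially encoded members took 3.85%, 2.93% and 4.38% of all counts in the 3 mice and the nuclear members 2.18%, 1.96% and 2.03%. The mitochondrial share leaves out cytochrome b, which the name rule missed, and rests partly on genes with uncertain counts, described below. It is therefore not like for like with the HCT116 share. The mitochondrial genes ranged widely in level. mt-Co1, the catalytic core of complex IV, was at 24938, 18153 and 27434 CPM, mt-Nd1 of complex I at 4787, 3845 and 5232 CPM, and mt-Nd5 at 3380, 2748 and 4334 CPM. The complex I genes mt-Nd4, mt-Nd2 and mt-Nd6 followed with means of 2952, 2512 and 57.5 CPM. The other 6 had means of 0.528 CPM (mt-Nd4l) to 8.44 CPM (mt-Co2), although mt-Co2 and mt-Co3 belong to the same complex as mt-Co1. In HCT116 cells with DMSO, MT-CO2 was at 1434 to 9837 CPM and MT-CO3 at 1960 to 15092 CPM.

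These 6 low genes have near-complete copies in nuclear DNA. In the mouse genome (GRCm38), 99% of the 50-base stretches of mt-Nd3 and 100.0% of those of mt-Co2, mt-Co3, mt-Atp6, mt-Atp8 and mt-Nd4l also occurred letter for letter in nuclear chromosomes, most often on chromosome 1. Of the other 6, mt-Nd1 and mt-Nd6 had none, mt-Nd5 had 7.61%, mt-Nd2 had 8.29%, mt-Co1 had 51.1% and mt-Nd4 had 62.2%. Human members ranged from 0.0% (MT-ND3 and MT-ND4L) to 50.6% (MT-CO1). The study's methods keep uniquely mapped reads and the read length is not given in the sources used here, so the colon counts of the copied genes are uncertain, and the part of the copies in their level was not tested.

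**Figure D1:**
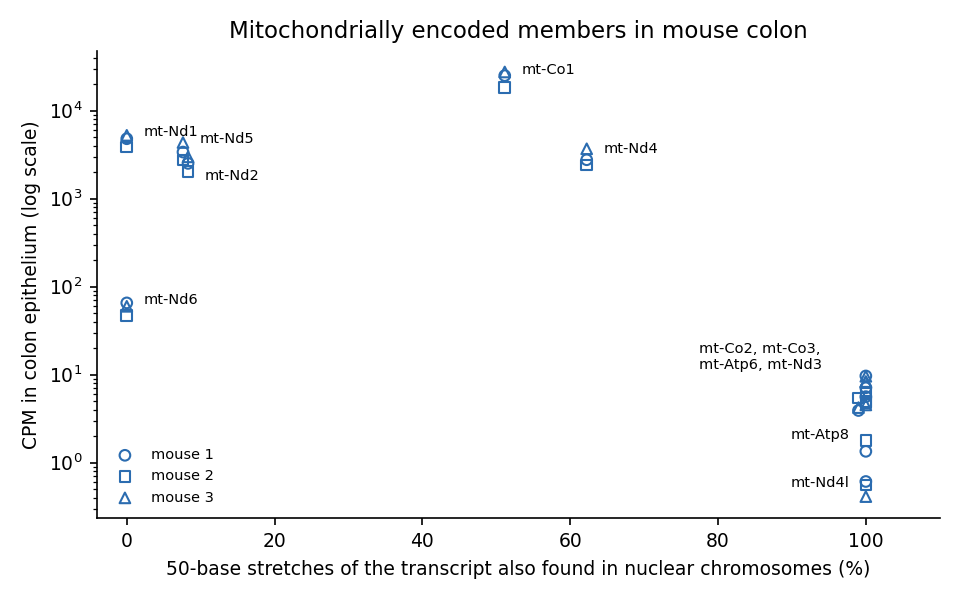
Level of the 12 mitochondrially encoded members in colon epithelium of 3 mice (y axis, CPM, log scale) against the percentage of 50-base stretches of each gene that also occur in nuclear chromosomes (x axis). The 6 genes at 99% or more have means of 8.44 CPM or less, and the 6 at 62.2% or less have means of 57.5 CPM or more.

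Levels of different nuclear subunits were compared per kb of exon sequence. The highest in colon were the complex IV subunits Cox4i1 (903, 752 and 854 CPM per kb in the 3 mice), Cox6a1 (883, 694 and 700 CPM per kb) and Cox8a (778, 799 and 686 CPM per kb). Their values overlapped, so these 3 are not ordered. The highest in HCT116 with DMSO were ATP5B, the catalytic beta subunit of ATP synthase (mean 494 CPM per kb), NDUFS5 of complex I (345 CPM per kb) and COX8A (328 CPM per kb). Across 79 nuclear subunits in both sources the level per kb had a Spearman correlation of 0.567, given as a description since all points share the same libraries.

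**Figure D2:**
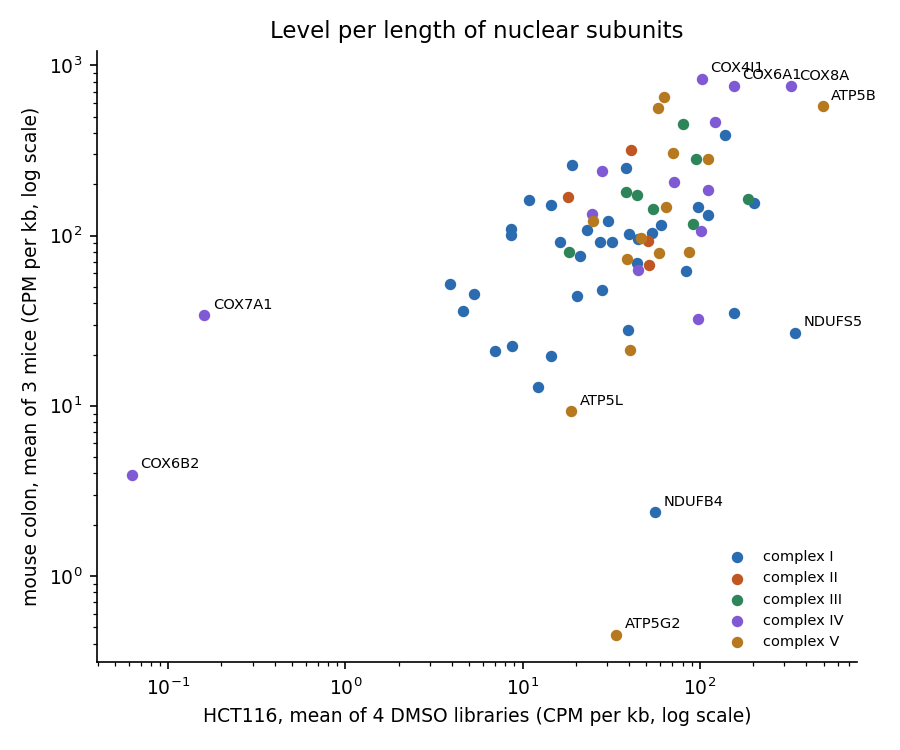
Level (CPM per kb of exon sequence, both axes on a log scale) of the 74 nuclear subunits above 0 in both sources, as the mean of the DMSO libraries of HCT116 and of 3 mice, coloured by complex. ATP5G2 and NDUFB4 lie low in colon for their level in HCT116 (0.452 against 33.8 and 2.38 against 56.2 CPM per kb).

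Isoforms known from other tissues were absent or low. Cox4i2 of lung, Cox6a2 and Cox8b of muscle, Cox7b2 and Cox8c of testis and Ndufa4l2, which responds to hypoxia, were listed at 0 in all 3 colon libraries. Cox7a1, the heart and muscle form, was at 28.3, 13.0 and 13.4 CPM beside 221, 187 and 177 CPM for the common form Cox7a2. The smooth muscle gene Des was at 19.0 CPM in the same libraries, and its part in the Cox7a1 level was not tested. In HCT116, COX6A2 and COX7B2 had 0 counts in every library and COX8C had 0 or 1, while COX7A1 had 13 counts and COX4I2 had 6 in DMSO library 3 and 0 or 1 elsewhere.

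Subunit c of ATP synthase is encoded by 3 genes whose mature protein is the same. In colon Atp5g3 was at a mean of 665 CPM, Atp5g1 at 104 CPM and Atp5g2 at 0.757 CPM, whereas ATP5G2 was at 121, 136, 143 and 129 CPM in HCT116 with DMSO. Of the 50-base stretches of Atp5g2, 11.1% occurred elsewhere in the mouse genome. The share was larger for Ndufb4 (41.3%, at 4.56 CPM) and Atp5l (84.0%, at 60.1 CPM), so their colon counts are uncertain.

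In colon, nearly every nuclear member that was expressed carried both marks at its start. An H3K18cr peak lay in or within 2 kb of 77 of 85 nuclear members and within 1 kb of a start site of 76, against 50.8% of all protein-coding genes. At a mean of 20 CPM or more the gap was small: 72 of 74 members had a start-site peak, against 93.6% of the 7255 genes at that level. H3K4me3 peaks lay at 79 members, 78 of them at a start site (64.2% of all protein-coding genes), and at 73 of the 74 members at 20 CPM or more (96.7% of genes at that level). Of the 78 H3K18cr peaks at member start sites, 76 overlapped an H3K4me3 peak. The authors list 1 peak set per table, so presence of a peak cannot be compared between replicates.

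The strength of these peaks was close to that of other start sites. The log2 ratio of H3K18cr to input had medians of 1.39 and 1.76 in the 2 libraries at member start sites and of 1.36 and 1.68 at all start-site peaks, and the median width was 1650 bases in both sets. For H3K4me3 the medians were 1.82, 2.63 and 2.93 at members and 1.77, 2.50 and 2.88 at all start-site peaks. At Atp5g3 (chr2:73909951-73912200, GRCm38) the H3K18cr signal was 299 and 447 scaled reads over inputs of 57.0 and 79.4, and at Cox4i1 (chr8:120667351-120669300) it was 151 and 305 over 45.0 and 54.9. The Cox4i1 peak also lies at the start of Cox4nb, so its signal cannot be given to Cox4i1 alone. Across 76 members the Spearman correlation of colon CPM with H3K18cr signal was 0.257 and 0.235 in the 2 libraries, as a description.

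The 8 members without an H3K18cr peak were Atp5g2, Cox4i2, Cox6a2, Cox7b2, Cox8b, Cox8c and Ndufa4l2, at a mean of 0.757 CPM or less, and Uqcr11, a small complex III subunit at 190, 178 and 171 CPM. Uqcr11 had an H3K4me3 peak at its start (chr10:80405701-80407500) with log2 ratios to input of 1.76, 2.23 and 2.80. Cox7b, a complex IV subunit at 320, 284 and 267 CPM, had an H3K18cr peak at its start (chrX:106015651-106016850, log2 ratios of 2.18 and 1.64) and no H3K4me3 peak. Of the 50-base stretches of the Uqcr11 transcript, 39.1% occurred elsewhere in the genome, so its RNA counts are uncertain. The start region itself was not searched.

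The comparison of MS275 with DMSO asked how these genes moved under class I deacetylase inhibition. Within each pair of same-numbered HCT116 libraries the products of the 2 genomes moved in opposite directions. Mitochondrially encoded members took 2.13%, 1.57%, 9.28% and 2.29% of counts in DMSO libraries 1 to 4 and 3.19%, 1.95%, 10.3% and 2.85% in MS275 libraries 1 to 4. The groups overlapped and library 3 was the highest of each, but the share was higher with MS275 in 4 of 4 pairs, by 0.58, 0.31, 0.15 and 0.31 on the log2 scale (mean 0.34 ± 0.18, SD, n = 4). Nuclear members took 1.17%, 1.16%, 1.19% and 1.06% with DMSO and 0.981%, 1.08%, 1.14% and 0.932% with MS275. That share was lower in 4 of 4 pairs, with log2 differences of -0.25, -0.11, -0.06 and -0.19 (mean -0.15 ± 0.084, SD, n = 4).

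An exact sign-flip test over the 4 pairs gave p = 0.125 for each share (two-sided), the smallest value that 4 pairs allow. An exact permutation test over the 8 libraries without pairs gave p = 0.543 for the mitochondrially encoded and p = 0.0857 for the nuclear share. Taken over counts outside the mitochondrial genome only, the nuclear share was again lower in 4 of 4 pairs (mean log2 difference -0.14, exact permutation p = 0.229 over the 8 libraries). In bulk RNA, fewer cells with a transcript and less of it per cell cannot be told apart.

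**Figure D3:**
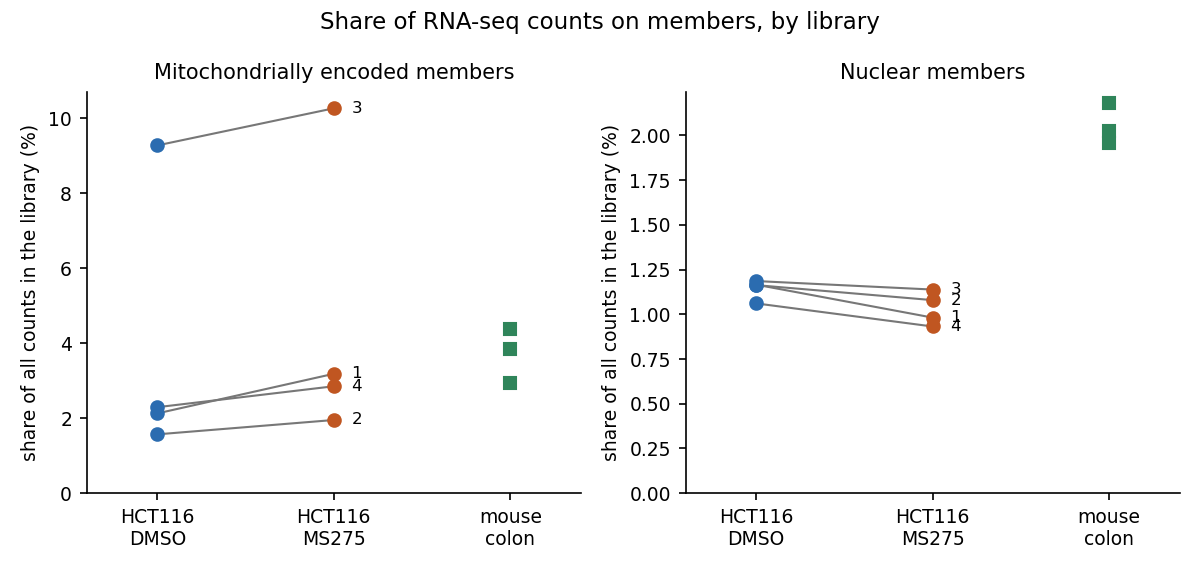
Share of all RNA-seq counts (y axis, %) on mitochondrially encoded members (left) and nuclear members (right) in each library of HCT116 with DMSO (blue) or MS275 (orange), lines joining same-numbered libraries, and of mouse colon (squares). Every line rises on the left and falls on the right, and the libraries numbered 3 lie at 9.28% and 10.3% on the left. The colon squares on the left leave out cytochrome b and hold genes with uncertain counts, so they are not like for like with HCT116.

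Gene by gene, the calls depended on whether the replicate number entered the fit. Without it, the edgeR quasi-likelihood test over 14961 genes called 0 members, with 85 nuclear and 13 mitochondrially encoded members tested (0.00668% of all genes were called higher and 0.0% lower). At an unadjusted p under 0.05 it gave 1 member, and DESeq2 gave 0 calls and 4 members at an unadjusted p under 0.05. Same-numbered libraries deviated together from their group means, and with the number as a block edgeR called 26 members at an adjusted p under 0.05. Of the 13 mitochondrially encoded genes 11 rose (7.83% of all genes did), and of the 85 nuclear members 15 fell (6.55% of all genes did) and 0 rose. DESeq2 with the block called 7 mitochondrially encoded members higher, 25 nuclear members lower and 1 nuclear member higher, COX6B2 (9.75% of all genes higher and 9.3% lower). Median log2 changes in the edgeR fit with the block were 0.32 and -0.16, against 0.01 over all genes, and 77 of the 85 nuclear estimates were below 0.

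Counts varied with the pairs included. Without number 3, where the mitochondrial share is highest, 11 mitochondrially encoded members rose and 27 nuclear members fell with the block (8.35% of all genes higher and 8.82% lower). Without number 1 the counts were 8 and 2 (3.82% and 2.61% of all genes), without number 2 they were 7 and 12 (3.65% and 2.9%), and without number 4 they were 10 and 4 (4.18% and 2.7%). Higher in each of 4 pairs were 9 of 13 mitochondrially encoded members (19.2% of all genes), and lower in each were 38 of 85 nuclear members (17.5% of all genes). The MS275 values lay wholly below the DMSO values for 5 nuclear members (1.89% of all genes). Not tested for low counts were COX4I2, COX6A2, COX7A1, COX7B2, COX8C and ATP5L2.

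The 11 mitochondrially encoded genes that rose did so by 0.23 (MT-ND3) to 0.49 (MT-ND5) on the log2 scale with the block. MT-ND5, a proton-pumping subunit of complex I, was at 976, 944, 4118 and 1474 CPM with DMSO and 1898, 1199, 5666 and 1681 CPM with MS275 (0.49 ± 0.092 SE, edgeR adjusted p = 0.00492). MT-CYB, cytochrome b of complex III, was at 1103, 1083, 5084 and 1725 CPM and then at 2033, 1416, 6544 and 1970 CPM (0.46 ± 0.084, edgeR adjusted p = 0.00439). MT-ND4L was at 530.0, 389, 1822 and 559 CPM and then at 830.4, 471, 2804 and 648 CPM (0.44 ± 0.074, edgeR adjusted p = 0.00267). Each of these 3 was higher in 4 of 4 pairs, and the groups overlapped with library 3 and without it.

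The other complex I genes that rose were MT-ND4 (0.36), MT-ND1 (0.35), MT-ND2 (0.29) and MT-ND3 (0.23), the last pair in 3 of 4 pairs. MT-CO2 (0.32) and MT-CO3 (0.33) of complex IV and MT-ATP6 (0.31) and MT-ATP8 (0.32) of ATP synthase were higher in 4 of 4. MT-CO1 and MT-ND6 did not pass over all 4 pairs. Without number 3 and with the block, all 3 mitochondrially encoded genes of complex IV passed, MT-CO1 among them. In complex I, 5 of the 7 then passed. MT-CO1 was at 4206, 2413, 17253 and 3692 CPM with DMSO and 4644, 3079, 15291 and 5336 CPM with MS275, lower in pair 3 only (0.21 ± 0.083, edgeR adjusted p = 0.104). MT-ND6, encoded on the opposite strand from the rest, was at 32.3, 17.0, 148 and 9.67 CPM and then at 49.9, 15.1, 203 and 10.9 CPM (0.29 ± 0.12, edgeR adjusted p = 0.129). Use of strand in counting is not given in the sources used here, so reads of MT-ND6 and of transcripts opposite it may be mixed.

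In complex I, 8 of 36 nuclear subunits were lower with the block (14 without number 3, and 0 by edgeR without the block), with a median log2 change of -0.21. Without number 1 the fit with the block called 2 nuclear members of all complexes lower, and without number 4 it called 4. Most of the 8 calls were therefore lost without number 1. NDUFB8, an accessory subunit, was at 195, 146, 200 and 129 CPM with DMSO and 122, 113, 168 and 98.8 CPM with MS275 (-0.42 ± 0.078, edgeR adjusted p = 0.00477). NDUFA13, also known as GRIM-19, was at 154, 149, 251 and 106 CPM and then at 94.2, 109, 231 and 80.2 CPM (-0.42 ± 0.088, edgeR adjusted p = 0.00837). NDUFC1 was at 65.5, 55.8, 73.9 and 49.3 CPM and then at 47.9, 39.5, 58.4 and 38 CPM (-0.42 ± 0.087, edgeR adjusted p = 0.00823). These 3 were lower with MS275 in every pair, and their groups overlapped. The core subunit NDUFS3 (-0.33) and the accessory subunits NDUFB5 (-0.32), NDUFB6 (-0.33) and NDUFS5 (-0.30) fell too, and for NDUFB5 and NDUFB6 the groups did not overlap.

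Complex II, which has no mitochondrially encoded subunit, had 2 of 4 genes lower, with number 3 and without it. Over all complexes, 2 nuclear members were called lower without number 1 and 4 without number 4. SDHB, its iron-sulfur subunit, was at 143, 125, 124 and 107 CPM with DMSO and 104, 111, 100.4 and 88.7 CPM with MS275 (-0.30 ± 0.074, edgeR adjusted p = 0.0171). SDHD, a membrane anchor, was at 126, 114, 107 and 112 CPM and then at 95.6, 100.5, 87.4 and 98.9 CPM, with no overlap (-0.26 ± 0.074, edgeR adjusted p = 0.0333). The catalytic SDHA (-0.10, edgeR adjusted p = 0.342) and the anchor SDHC (-0.09, edgeR adjusted p = 0.457) did not pass.

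In complex III 1 of 8 subunits fell (2 without number 3), with a median of -0.13. This was UQCRFS1, the Rieske iron-sulfur protein, at 155, 125, 151 and 117 CPM with DMSO and 113, 112, 111 and 98.7 CPM with MS275, with no overlap (-0.33 ± 0.076, edgeR adjusted p = 0.0130). In complex V 3 of 15 fell, with number 3 and without it, with a median of -0.17. Without number 1 only 2 nuclear members of all complexes were called lower, so not all 3 were kept there. ATP5G2 of the c ring was at 121, 136, 143 and 129 CPM and then at 87.6, 108, 126 and 101 CPM (-0.33 ± 0.073, edgeR adjusted p = 0.0101), and ATP5L (-0.27) and ATP5O (-0.25) followed. The other subunit c genes ATP5G1 (-0.15, edgeR adjusted p = 0.226) and ATP5G3 (-0.16, edgeR adjusted p = 0.153) did not pass. The assembly factor ATP5SL (-0.32, edgeR adjusted p = 0.0229) was the 1 call among members that are not subunits.

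Complex IV had 0 of 13 tested subunits called by edgeR with the block, with a median of -0.13, and 4 called lower without number 3. COX4I1, the common form of subunit 4, was at 504, 456, 619 and 395 CPM with DMSO and 380, 403, 618 and 339 CPM with MS275 (-0.20 ± 0.067, edgeR adjusted p = 0.0643). COX6A1 (-0.12), COX7A2 (-0.11), COX8A (-0.17) and NDUFA4 (0.05), a complex IV subunit despite its name, did not pass either, nor did NDUFA4L2 (-1.04, edgeR adjusted p = 0.518). COX6B2, a testis form, had 5, 11, 1 and 28 counts with DMSO and 66, 58, 25 and 61 with MS275. Its MS275 CPM lay wholly above its DMSO CPM, and the test with the block did not pass (2.88 ± 1.05, edgeR adjusted p = 0.0847).

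**Figure D4:**
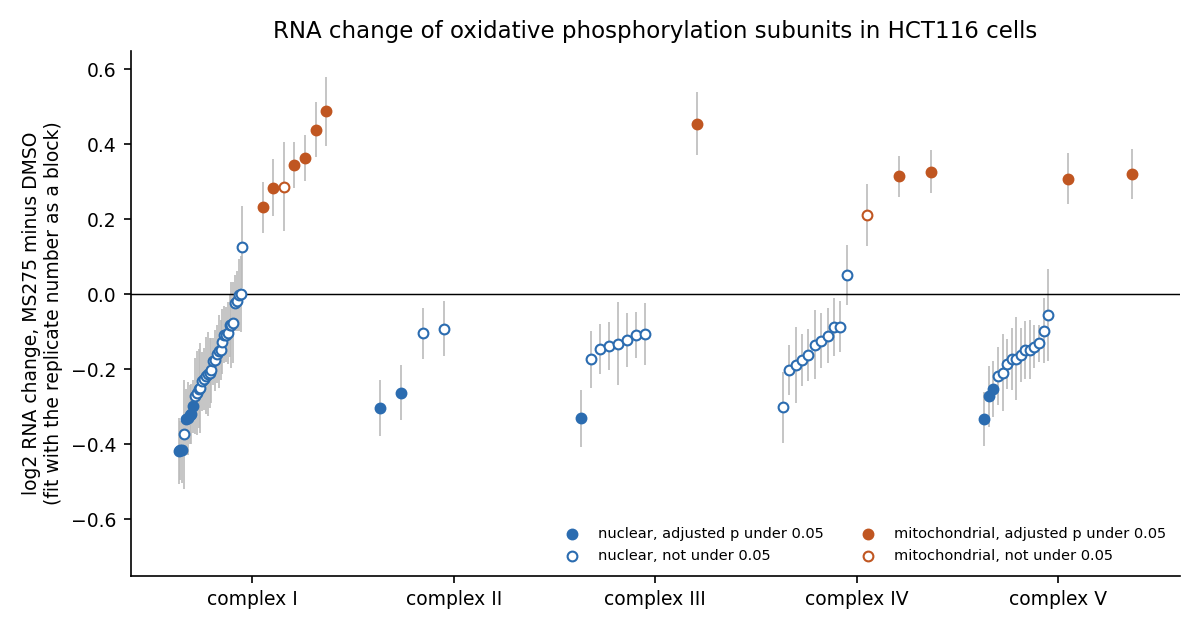
Log2 RNA change, MS275 minus DMSO (y axis, edgeR with a block for the number of the replicate, bars are SE), of 87 subunits by complex (x axis), nuclear in blue and mitochondrially encoded in orange, filled where the adjusted p was under 0.05. Mitochondrially encoded points lie at 0.21 to 0.49 and most nuclear points lie below 0, while COX6B2 at 2.88 and NDUFA4L2 at -1.04 lie outside the axis and are not drawn.

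Genes that work beside the subunits were read from the same fit, in which 7.83% of all genes rose and 6.55% fell. Of 42 assembly factors 0 rose and 4 fell, COX16, COX20, COA7 and SDHAF1 (median log2 change -0.21), and 9 fell without number 3. Of 6 carriers and subunits outside the name rule 0 rose and 3 fell, CYC1, NDUFAB1 and ATPIF1 (median -0.29), and 4 fell without number 3. CYC1, cytochrome c1 of complex III, was at 355, 351, 465 and 310 CPM with DMSO and 263, 284, 393 and 234 CPM with MS275. Of 76 mitochondrial ribosomal proteins, which serve the translation of mitochondrially encoded subunits, 0 rose and 23 fell (median -0.22), and 30 fell without number 3.

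Of 16 genes of mitochondrial genome maintenance and expression, LRPPRC, which stabilizes mitochondrial mRNA, rose, and the transcription factor TFB2M and the RNA polymerase POLRMT fell (median -0.14), and without number 3 the rise was lost and 3 fell. Of 9 nuclear regulators 1 rose and 2 fell (median -0.19), among them the coactivators PPARGC1B, which rose, and PPRC1, which fell, and without number 3 the rise was lost and 3 fell. Of 12 TCA cycle genes 1 rose and 2 fell, among them OGDH, which rose, and SUCLA2, which fell (median -0.03), and of 17 glycolysis genes HK1 and ENO2 rose and ALDOA and LDHB fell (median 0.0059). Without number 3 the TCA cycle had 1 rise and 1 fall and glycolysis 2 rises and 4 falls. Of 7 epithelial markers CDH1, KRT8, KRT18 and KRT19 rose and EPCAM, CDX2 and CLDN7 fell, COL1A1 was the 1 of 4 stromal genes that rose, and 0 of 3 immune genes were called by edgeR with the block. Without number 3, 4 epithelial markers rose and 2 fell, and 2 stromal genes rose. The part of these markers in the subunit changes was not tested.

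In HCT116 cells, peaks of H3K18cr and H3K18ac lay in or within 2 kb of 86 of 91 nuclear members. The 5 without a peak were COX6A2, COX7A1, COX7B2 and COX8C, at a mean of 0.094 CPM or less, and the retrocopy UQCRHL at 3.52 CPM. Of 117 member peaks among 40266, 81 lay within 1 kb of a start site of the member, taken from its protein-coding transcripts where the annotation has them. Of these 81, 39 also lay within 1 kb of the start of another gene, so that their signal cannot be given to the member alone.

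Both marks took a smaller share of peak signal at member start sites after MS275. H3K18cr there was 0.271%, 0.261% and 0.260% of all signal in peaks with DMSO and 0.222%, 0.218% and 0.221% with MS275. H3K18ac was 0.303%, 0.308% and 0.327% with DMSO and 0.252%, 0.239% and 0.248% with MS275. The groups did not overlap for either mark, and the inputs held 0.227% and 0.228%. All protein-coding start sites moved the same way, from 48.7% to 49.8% with DMSO to 43.3% to 43.6% with MS275 for H3K18cr and from 49.9% to 53.7% to 43.2% to 45.7% for H3K18ac, with inputs at 39.9% and 39.5%.

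ChIP values were scaled to each library's reads, so each change below is relative to the rest of that library, and a change in the total amount of a mark cannot be seen in them. In the paper, western blots of HCT116 showed more histone crotonylation with MS275. Its ChIP-qPCR showed more H3K18cr at promoters of chosen genes, which are not members, and at repeats. For H3K18cr, limma called 70 of 117 member peaks lower and 0 higher, against 23.0% of all peaks lower and 0.232% higher. At member start sites 54 of 81 were lower (66.7%), against 55.1% of all start-site peaks (0.0624% higher), with median log2 changes of -0.63 and -0.54. For H3K18ac, 59 of 117 were lower and 0 higher, against 16.3% of all peaks lower and 0.262% higher. At member start sites 50 of 81 were lower (61.7%), against 43.2% of all start-site peaks (0.0624% higher), with medians of -0.78 and -0.60. When the number of the library entered as a block, limma called 78 of 117 lower for H3K18cr (26.1% of all peaks) and 3 of 117 for H3K18ac (2.01% of all peaks). Whether members differ from other start sites was not tested. The MS275 values lay wholly below the DMSO values at 71 member peaks for H3K18cr (29.8% of all peaks) and at 74 for H3K18ac (23.0% of all peaks).

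Every complex had medians below 0, and differences between complexes were not tested. For H3K18cr the medians were -0.62 in complex I (32 of 51 peaks lower), -0.52 in II (6 of 9), -0.60 in III (8 of 10), -0.53 in IV (8 of 15) and -0.57 in V (10 of 20). For H3K18ac they were -0.73 (27 of 51), -0.57 (4 of 9), -0.81 (6 of 10), -0.68 (8 of 15) and -0.68 (11 of 20).

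These counts moved with the scaling and with single replicates. With TMM scaling over all peaks the H3K18cr median of all peaks was 0.04 in place of -0.20 and 35 member peaks were called lower (11.1% of all peaks lower and 1.78% higher), and the H3K18ac median was 0.06 in place of -0.19 with 60 called lower (16.5% of all peaks lower and 4.50% higher). TMM scaling shifts all peaks of a library by the same amount, so distances between medians cannot change. The member median lay at -0.38 for H3K18cr and -0.49 for H3K18ac relative to the median of all peaks. The H3K18cr count was 19 without replicate 1 (7.17% of all peaks), 16 without replicate 2 (5.10%) and 98 without replicate 3 (37.4%). The H3K18ac count was 89 without replicate 1 (29.5% of all peaks), 0 without replicate 2 (0.0025%, with 31 member peaks at an unadjusted limma p under 0.05) and 3 without replicate 3 (2.11%).

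The largest called relative H3K18cr falls lay at starts of complex I genes. At NDUFA10 (chr2:240024451-240026700, GRCh38) H3K18cr was 187, 167 and 132 scaled reads with DMSO and 87.7, 51.0 and 84.2 with MS275 (-1.15 ± 0.20 SE, limma adjusted p = 0.000127). At the start of NDUFA6 and its antisense transcript NDUFA6-AS1 (chr22:42089101-42091950) it was 218, 240.2 and 295 and then 90.0, 105 and 156 (-1.13 ± 0.19, limma adjusted p = 7.32e-05). At NDUFA5 (chr7:123556801-123558450) it was 78.0, 104 and 119 and then 51.7, 39.7 and 54.7 (-1.03 ± 0.21, limma adjusted p = 0.000416). The groups did not overlap at any of the 3, all 3 passed with TMM scaling and without each replicate in turn, and inputs held 21.2 to 54.8 scaled reads.

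The largest called H3K18ac falls included peaks at starts of neighbours. The peak near NDUFB10 (chr16:1962601-1966500) lies at the starts of RNF151 and RPS2 and had 309, 406 and 621 scaled reads of H3K18ac with DMSO and 196, 162 and 153 with MS275 (-1.34 ± 0.25). The peak near NDUFV3 (chr21:42877951-42880800) lies at the start of WDR4 and over the listed start of NDUFV3, 12468 bases from the nearest start of a protein-coding NDUFV3 transcript, and had 291, 324 and 452 and then 195, 117 and 130 (-1.28 ± 0.25). At UQCRQ, a small subunit of complex III that shares its start region with GDF9 (chr5:132865501-132867900), H3K18ac was 225, 258 and 355 and then 140.2, 119 and 123 (-1.11 ± 0.25). In all 3 the highest DMSO value was that of replicate 3, the groups did not overlap, and the H3K18ac call was lost without replicate 2 (limma adjusted p of 0.460, 0.462 and 0.464).

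Estimates were below 0 at 113 of 117 member peaks for H3K18cr and at 113 for H3K18ac (70.7% and 68.8% of all peaks, 92.5% and 91.3% of all start-site peaks), the starts of genes with large RNA falls among them. With TMM scaling the counts were 102 and 104 (46.3% and 44.4% of all peaks, 80.3% and 78.7% of all start-site peaks). UQCRFS1 (chr19:29211451-29213850) had H3K18cr at 200, 158 and 210.4 scaled reads with DMSO and 90.0, 86.4 and 164 with MS275, so that the groups overlapped (-0.79 ± 0.20, limma adjusted p = 0.00344). ATP5G2 (chr12:53674351-53677050) had 207, 173 and 127 and then 93.4, 80.7 and 108, with no overlap (-0.83 ± 0.19, limma adjusted p = 0.00145). Both calls were lost without replicate 1 and without replicate 2 (limma adjusted p of 0.117 and 0.0711 for UQCRFS1, 0.0897 and 0.111 for ATP5G2), and that of UQCRFS1 also with TMM scaling (0.0672). H3K18ac changed by -1.06 at UQCRFS1 and by -0.68 at ATP5G2 (limma adjusted p of 0.000914 and 0.0445), and both calls were lost without replicate 2 (0.464 and 0.682) and without replicate 3 (0.0655 and 0.466).

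NDUFA13 (chr19:19515301-19518000, also at the start of TSSK6) had an H3K18cr change of -0.54 ± 0.19 (limma adjusted p = 0.0333), lost with TMM scaling (0.241) and without replicate 1 (0.272) or 2 (0.289), and an H3K18ac change of -0.75 ± 0.25 (limma adjusted p = 0.0235), lost without replicate 2 (0.571) or 3 (0.589). SDHB (chr1:17053051-17054250) had H3K18cr at -0.50 ± 0.22, which did not pass (limma adjusted p = 0.103), and H3K18ac at 60, 73.9 and 124 and then 40.2, 36.3 and 55.5 scaled reads (-0.92 ± 0.25, limma adjusted p = 0.0035), lost without replicate 2 (0.464) or 3 (0.121). Across 84 members with a start-site peak and a tested RNA, the Spearman correlation of the RNA change with the mark change was 0.0628 for H3K18cr and 0.0591 for H3K18ac, as a description.

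Among the 81 start-site peaks, that of COX6B2 (chr19:55353151-55354800) was the 1 with an H3K18cr estimate above 0 (0.06, limma adjusted p = 0.912). It had 78.0, 43.7 and 66.5 scaled reads with DMSO and 61.9, 65.1 and 63.1 with MS275, and the MS275 values lay within the range of the DMSO values.

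Over the 117 member peaks the Spearman correlation between the H3K18cr and H3K18ac changes was 0.721, with libraries and peaks shared, and 51 peaks (43.6%) were called lower for both, against 14.4% of all peaks. At start sites the share was 51.9% for members and 38.9% for all peaks. The joint count moved with the processing, and it was 3 of 117 with the block (1.85% of all peaks), 33 with TMM scaling (9.8%), and 19, 0 and 3 without replicates 1, 2 and 3 in turn (7.06%, 0.0% and 2.06%). The limma interaction of mark and treatment called 0 of 40266 peaks at an adjusted p under 0.05, as did edgeR and DESeq2 on the recovered reads, and at an unadjusted p under 0.05 it gave 739 peaks and 0 of the 117 member peaks. The member median of the difference (H3K18cr minus H3K18ac change) was 0.10 on the log2 scale, and it was 0.42 without replicate 1 and -0.25 without replicate 3.

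**Figure D5:**
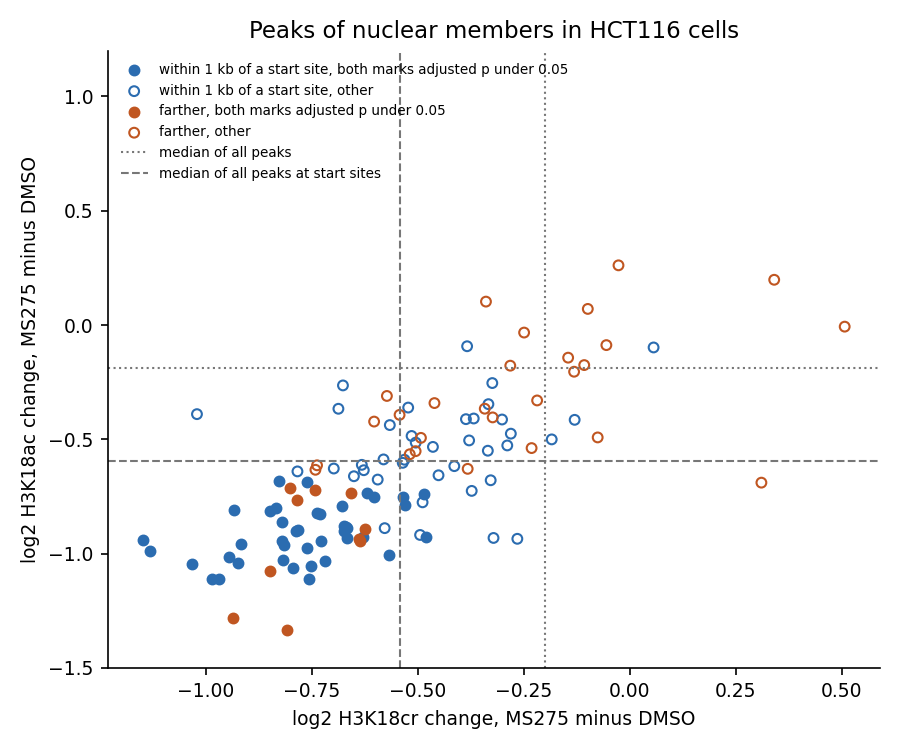
Log2 change with MS275 of H3K18cr (x axis) and H3K18ac (y axis) at the 117 peaks of nuclear members in HCT116, blue within 1 kb of a start site of the member and orange farther, filled where both marks had an adjusted p under 0.05. Dotted and dashed lines are the medians of all peaks (-0.20 and -0.19) and of all start-site peaks (-0.54 and -0.60), and most member points lie below and left of the dotted lines.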

How the data were processed

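RNA was measured as poly(A) RNA-seq and deposited as raw counts per gene. The deposited colon ChIP-seq signal is reads per peak, scaled by the authors to the largest library, and the deposited HCT116 ChIP-seq values are log2 of such scaled reads. The submitters' processing notes name Trim Galore 0.4.2, TopHat2 2.0.12 and Bowtie2 2.2.5 with GRCm38 and GRCh38, the study's methods name HiSat2 and SEQMONK, and uniquely mapped reads were kept. Dividing by the scaling factor gave whole reads within 0.05 read for 100.0% of ChIP values.

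RNA counts were tested with edgeR 4.0.16 (quasi-likelihood, TMM, filterByExpr) and ChIP values with limma 3.58.1 (trend, a mean of at least 10 scaled reads), with Benjamini-Hochberg adjustment over all genes or peaks and a threshold of 0.05. DESeq2 1.42.0, R 4.3.3 and Python 3.11.15 were also used. Same-numbered RNA libraries deviated together (correlations of 0.226, 0.151, 0.433 and 0.460), so the blocked fit is given beside the fit without it. This rests on the data, and DMSO library 2 correlated more with MS275 library 4 (0.239). The study compared HCT116 ChIP reads at start sites with a paired test. The ChIP fits here leave the pairing out, which departs from that. Same-numbered ChIP libraries did not all correlate above 0.1, and the blocked counts are given beside the others. The study's methods give 2 replicates for HCT116 H3K18cr where the labels give 3 libraries per treatment, and all 3 were used. The samples are called biological replicates, but where cultures were shared is not known, and p-values measure the spread between these samples.

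Members and lists (assembly factors, carriers, mitochondrial genome maintenance, regulators, TCA cycle, glycolysis, mitochondrial ribosomal proteins, cell type markers) were chosen with earlier results of these data known. MT-ATP6 and MT-ATP8 were kept although their names end in P and a digit. Named were every mitochondrially encoded member, up to 3 called nuclear members per complex and direction with the largest change, isoform pairs, the 3 called peaks per mark with the largest change, the 3 highest levels per source and members without a peak. Other names (further complex I calls, COX6B2, CYC1, list members, Cox7b, Ndufb4 and Atp5l) were chosen after their values were seen. On simulated HCT116 counts edgeR recovered 173 of 200 changed genes without the block and 174 with it. In the real libraries it called 1 gene higher and 0 lower of 14961 without the block. With the block it called 1171 higher and 980 lower. Recovery in the real libraries, for changes of the size seen in members, was not tested. Alternatives were scaling, filters, tool, block and left-out replicates. Values of some genes are not reported here.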

Additional observations from a re-analysis of the deposited data

Results flagged for a closer look

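Of 78 groups of 4 libraries tested for a value far from the other 3, 35 held one, where chance gives about 1 in 20 independent groups. These groups share libraries, most of the values stand in the libraries numbered 3 and some rest on counts near 0, so that rate is no yardstick for the 35. The mitochondrially encoded share was 9.28% in DMSO library 3 and 10.3% in MS275 library 3. In those libraries the value stood apart for MT-ATP6 (13003 and 13055 CPM), MT-ATP8 (3851 and 4775 CPM), MT-CO2 (9837 and 10857 CPM), MT-CO3 (15092 and 16662 CPM), MT-CYB (5084 and 6544 CPM) and MT-ND1 (6590 and 7626 CPM). It did so too for MT-ND2 (9169 and 8710 CPM), MT-ND3 (2337 and 3034 CPM), MT-ND4 (16545 and 21389 CPM), MT-ND4L (1822 and 2804 CPM) and MT-ND5 (4118 and 5666 CPM), and in DMSO library 3 alone for MT-CO1 (17253 CPM) and MT-ND6 (148 CPM).

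Among nuclear members the highest of the 4 DMSO values stood apart for ATP5G1 (149 CPM), ATP5O (239 CPM), COX4I2 (0.173 CPM), COX7A1 (0.376 CPM) and COX8C (0.0179 CPM). The highest of the 4 MS275 values stood apart for COX8C (0.0232 CPM) and NDUFS5 (229 CPM), and the lowest for COX6B2 (0.797 CPM) and UQCRFS1 (98.7 CPM).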

How the results depend on the processing

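The replicate number as a block raised the count of members called from 0 to 26, and to 26 with library sizes that leave out mitochondrially encoded genes, 27 with DESeq2 size factors and 33 with the DESeq2 test. Leaving out replicates without the block gave 0 calls, and with it 10, 19, 38 and 14 calls without numbers 1 to 4. The median log2 RNA change ranged from -0.294 (without MS275 replicate 3) to -0.0536 over nuclear members, and from -0.683 (without MS275 replicate 3, turning the direction) to 1.32 (without DMSO replicate 3) over mitochondrially encoded members, because leaving out 1 library number 3 leaves the other in 1 group. With TMM scaling over all peaks the H3K18cr count was 35 and its member median -0.343, and calls over all peaks went from 9214 lower and 93 higher to 4453 lower and 712 higher for H3K18cr, and from 6541 and 105 to 6631 and 1803 for H3K18ac. Left-out replicates gave 16 to 98 H3K18cr calls (23, 15 and 98 with the block, for replicates 1 to 3) and 0 to 89 H3K18ac calls. The replicate block gave 78 H3K18cr and 3 H3K18ac calls, where same-numbered libraries did not all correlate above 0.1 (correlations of 0.1083, 0.074 and 0.2297 for H3K18cr and -0.2067, 0.0489 and -0.1343 for H3K18ac). Of 30 named members, 30 kept their side of the threshold with either other scaling, 25 with the DESeq2 test with the block, 10 without the block, and 20, 24, 24 and 24 with it without replicates 1 to 4. NDUFA4, not called, turned from 0.05152 to -0.016 without replicate 3. Other causes were not tested. Depth and 3 or 4 libraries per group limit small changes.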
